A study of Mus musculus with 74 samples.

Results

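Clec7a (Dectin-1) and 8 further myeloid C-type lectin receptor genes, Clec4n, Clec4e, Clec4d, Clec5a, Clec4a2, Clec4a1, Clec4a3 and Clec12a, were followed in microglia and other brain cells of mice that differ in Trem2 and that were fed the myelin toxin cuprizone or control chow. The 9 genes were chosen by name, as receptors of this family that myeloid cells are known for, with earlier results of these data known. They were found under these symbols among the 49912 genes of the count table. The animals were Trem2 -/- (homozygous knockout, KO), Trem2 +/- (heterozygous knockout, HET) and Trem2 +/+ (wild type, WT), and each genotype received chow with 0.2% cuprizone or control chow for 5 or 12 weeks. Brains were dissociated whole, and viable cells were sorted by flow cytometry into Cd11b+ cells, labelled microglia, and all remaining cells, labelled nonmicroglia. Sequencing of tags near the 3' end of transcripts gave 74 libraries from 37 animals, 1 of each fraction per animal. A group held 3 animals, except HET on cuprizone and HET on control chow at 12 weeks with 4 and WT on control chow at 12 weeks with 2, and each group held 1 male. Animal age, strain and the design of the Trem2 allele were not given in the sources used here.

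C-type lectin receptors are surface proteins of myeloid cells that bind carbohydrates and lipids of microbes and of damaged cells. Activating members signal through the kinase Syk: Dectin-1 carries its own tyrosine motif, while Clec4n (Dectin-2), Clec4e (Mincle) and Clec4d pair with the adaptor Fcer1g, and Clec5a pairs with Tyrobp (DAP12), the adaptor that Trem2 also uses. Syk then acts through Card9 and NF-kB on cytokine genes. Inhibitory members such as Clec4a2 (DCIR) and Clec12a carry a motif that recruits phosphatases. Cuprizone kills oligodendrocytes and leaves myelin debris, and Clec7a is widely used as a marker of microglia that respond to such damage.

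All 9 genes lie on chromosome 6 of GRCm38.p6 in the GENCODE M21 annotation and the 6 Clec4 genes lie together in 1 cluster. The gene bodies are Clec5a (ENSMUSG00000029915.14) 40574894 to 40585821 on the minus strand; Clec4a1 (ENSMUSG00000049037.8) 122921848 to 122934619 on the plus strand; Clec4a3 (ENSMUSG00000043832.13) 122952515 to 122969875 on the plus strand; Clec4a2 (ENSMUSG00000030148.15) 123106428 to 123143999 on the plus strand; Clec4n (ENSMUSG00000023349.14) 123229843 to 123247021 on the plus strand; Clec4d (ENSMUSG00000030144.4) 123262111 to 123275265 on the plus strand; Clec4e (ENSMUSG00000030142.10) 123281789 to 123289870 on the minus strand; Clec12a (ENSMUSG00000053063.11) 129342691 to 129365303 on the plus strand; and Clec7a (ENSMUSG00000079293.11) 129461591 to 129472779 on the minus strand. No other gene had an exon over the last 500 bases of a member, where tags fall. Of all 50-base windows in the last 300 transcript bases, 12.0% of those of Clec4a2 also occurred in transcripts of Clec4a4 or Clec4b1 and 1.5% of those of Clec4n in Gm44147, so counts of this pair are less certain. The other 7 members shared no such window.

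RefSeq promoter windows of GRCm38.p6, from 250 bases before to 50 bases after a gene's start, were found for 8 of the 9 members, all except Clec4n. They were searched on both strands for the core of the PU.1 site, GAGGAA, since PU.1 is the lineage factor of myeloid cells, and for the AP-1 site TGANTCA. The PU.1 core occurred in 7 of the 8 members, in all except Clec4a2, against 28.3% of 32851 mouse promoter windows. A member counted when any of its windows held a motif, while shares over all promoters are per window. Clec7a and Clec4a3 had more than 1 window, and 1 window of Clec4a3 held no PU.1 core. The AP-1 letters occurred in Clec4a2 and Clec12a, against 7.81% of all windows. Of 4 further motifs searched, the TATA box letters TATAAA occurred in 4 of the 8 members against 13.6% of all windows, the IRF motif in 1 (Clec4d) against 3.44%, and the E-box CACGTG and the NF-kB motif in 0, against 7.15% and 1.63%. Relative to the start, the TATAAA letters begin at -209 (Clec5a, as reverse complement), -161 (Clec4a2), -29 (Clec4e) and 43 (Clec7a, as reverse complement). Shown here 5' to 3' are Clec7a, the member whose level changed with diet and genotype, and, beside it, Clec5a and Clec4a2, a pair of well-detected members of which neither passed the test of diet. Capitals mark GAGGAA or its reverse complement TTCCTC and, in Clec4a2, the AP-1 letters. A match is a description of the letters and not evidence of binding.
Clec7a promoter, chr6:129472730-129473029, minus strand: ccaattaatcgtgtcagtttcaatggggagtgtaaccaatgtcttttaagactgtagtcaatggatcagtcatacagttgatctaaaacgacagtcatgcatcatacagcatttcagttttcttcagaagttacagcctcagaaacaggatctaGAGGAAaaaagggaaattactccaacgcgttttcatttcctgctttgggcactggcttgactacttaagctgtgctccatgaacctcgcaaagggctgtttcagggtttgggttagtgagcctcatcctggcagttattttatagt
Clec5a promoter, chr6:40585756-40586055, minus strand: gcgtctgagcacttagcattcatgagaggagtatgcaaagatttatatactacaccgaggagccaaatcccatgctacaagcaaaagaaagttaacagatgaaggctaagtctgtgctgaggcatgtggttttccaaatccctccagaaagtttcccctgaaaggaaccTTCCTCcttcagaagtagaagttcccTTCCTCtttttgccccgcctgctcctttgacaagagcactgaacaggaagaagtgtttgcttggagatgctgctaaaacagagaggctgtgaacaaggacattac
Clec4a2 promoter, chr6:123122440-123122739, plus strand: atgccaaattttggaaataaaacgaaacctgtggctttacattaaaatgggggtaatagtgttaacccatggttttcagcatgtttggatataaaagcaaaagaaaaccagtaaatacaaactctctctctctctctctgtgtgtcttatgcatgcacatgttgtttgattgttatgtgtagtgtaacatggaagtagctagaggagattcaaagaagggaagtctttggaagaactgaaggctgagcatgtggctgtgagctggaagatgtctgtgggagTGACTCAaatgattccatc
The match in Clec7a begins 96 bases before the annotated start, those in Clec5a begin 81 and 55 bases before it, and the AP-1 letters of Clec4a2 lie after its RefSeq start, which is inside the GENCODE gene body.

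Levels are given in CPM, a gene's count scaled to the total count of its library. They are comparable between libraries for 1 gene and not between genes. Microglia libraries held 1043961 to 3945694 counts and nonmicroglia libraries 1255465 to 3441041, so that 3 counts, the most that a count of 0 allows, correspond to 0.760 to 2.87 CPM in microglia. The share of counts on genes not labelled protein coding, called noncoding here, was 5.197% to 9.80% in microglia and 8.83% to 16.6% in nonmicroglia. Clec7a is labelled a polymorphic pseudogene in the count table, so its own counts are part of this share. Within groups, no library was a copy of another, and libraries of different groups were not compared in this way. Trem2 itself had 109 to 250.4 CPM in the 12 KO microglia libraries, against 308 to 987 in HET and 418 to 989 in WT. KO was below WT in every diet and week, so the targeted gene was reduced in KO as labelled, with tags remaining in KO. HET lay below WT without overlap on control chow, with means of 368 against 692 (5 weeks) and 362 against 827 CPM (12 weeks). On cuprizone HET overlapped WT, with means of 711 against 734 and 848 against 920 CPM, and lay above HET on control chow without overlap. All 9 microglia markers were higher in the microglia fraction: P2ry12 had a median of 2281 CPM there, against 30.2 in nonmicroglia. Markers of neutrophils were present in microglia libraries too, with a sum over 11 genes between 103 and 8074 CPM. S100a8, S100a9, Ngp and Camp were found in all 37 libraries, while Ly6g was at 0 in 22 and Mpo and Elane each in 28 of 37.

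The lectin genes were found in the Cd11b+ cells. Across all genotypes, diets and weeks, Clec7a had a median of 97.6 (6.95 to 1139) CPM in 37 microglia libraries, against 3.23 (0 to 15.2) CPM in 37 nonmicroglia libraries, range in parentheses. The corresponding medians and ranges were 223 (85.9 to 456) against 3.15 (0.549 to 8.03) CPM for Clec4a3, 145 (32.2 to 310.1) against 1.31 (0 to 6.53) CPM for Clec5a and 102 (24.6 to 217) against 1.04 (0 to 5.71) CPM for Clec4a2. Microglia and nonmicroglia libraries did not overlap for any of these last 3 genes, and overlapped for Clec7a. Clec4n, Clec4a1 and Clec12a had microglia medians of 19.5, 16.6 and 12.8 CPM and a median of 0 in nonmicroglia. Clec4e had a median of 0.693 CPM in microglia and was at 0 in 16 of the 37 microglia and 32 of the 37 nonmicroglia libraries. Clec4d was at 0 in 22 microglia and 34 nonmicroglia libraries.

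Differences are given as log2 fold changes ± standard error from edgeR's quasi-likelihood test, two-sided, with p adjusted over all genes tested by Benjamini-Hochberg, and a gene is said to change where the adjusted p is under 0.05. Between the fractions of WT animals, 6 of the 7 members tested were higher in microglia on control chow, where 35.6% of all genes were called higher or lower, and 8 of the 8 tested on cuprizone, where 42.1% were called. Members tested here passed a filter on low counts, and those found in microglia only could pass it through that fraction. Clec7a was higher by 8.47 ± 0.38 on the log2 scale on cuprizone (adjusted p = 2.83e-14) and 5.10 ± 0.67 on control chow (adjusted p = 3.53e-07). The log2 differences of the other members called ran from 4.42 ± 1.14 (Clec4a1) to 6.91 ± 0.46 (Clec5a) on cuprizone and from 6.18 ± 0.44 (Clec4a3) to 7.78 ± 0.66 (Clec4a2) on control chow. Clec12a on control chow had 4.14 ± 1.67 with an adjusted p of 0.0528, and it passed with the animal as a replicate block (5.42, adjusted p = 0.0242). With the share of counts on noncoding genes as a covariate, added after seeing the data, 6 members on control chow and 5 on cuprizone were called. Over all genes 2496 and 2859 were called in that fit, against 4406 and 5708 without the covariate. Without WT animal 2474 at 5 weeks Clec4e lost its call on cuprizone (4.93, adjusted p = 0.0516).

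**Figure D1:**
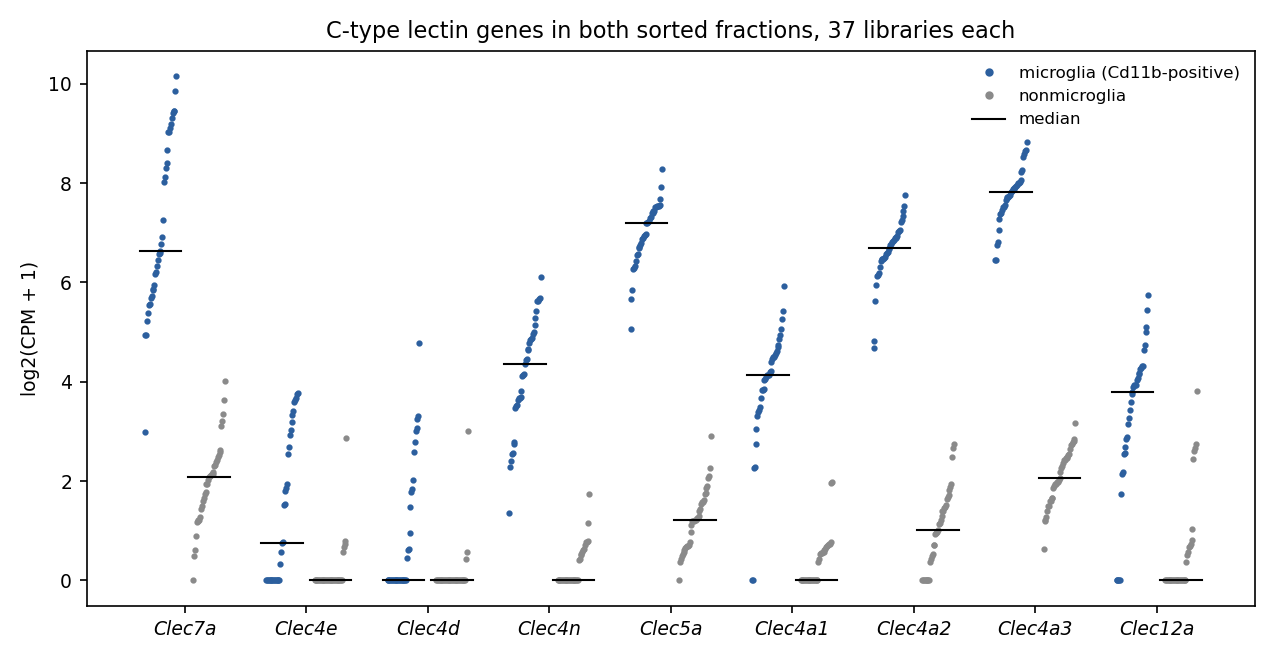
The 9 lectin genes in the sorted fractions, as log2(CPM + 1) on the vertical axis, with 1 point per library (37 microglia libraries left of 37 nonmicroglia libraries for each gene) and a line at the median. Clec4a2, Clec4a3 and Clec5a separate the fractions fully, Clec7a is spread over the widest range in microglia, and Clec4d and Clec4e lie at or near 0 in most libraries.

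Clec7a, the receptor for fungal beta-glucans, was higher on cuprizone in all 3 genotypes after 5 weeks. In KO microglia it had 97.6, 119.7 and 87.0 CPM on cuprizone, against 29.7, 36.4 and 6.95 CPM on control chow. In HET microglia the values were 314, 548 and 339 CPM on cuprizone, against 41.0, 56.9 and 73.2 CPM on control chow. In WT microglia they were 406, 580.2 and 699 CPM on cuprizone, against 79.9, 95.9 and 57.7 CPM on control chow. Every cuprizone library lay above every control library of its genotype. The KO libraries on cuprizone lay close to the highest WT control library. Behind these values stood 15 to 1771 counts of Clec7a per microglia library over both weeks. The group means were 101 ± 16.7, 401 ± 129 and 562 ± 147 CPM on cuprizone, against 24.3 ± 15.4, 57.0 ± 16.1 and 77.9 ± 19.2 CPM on control chow, in the order KO, HET, WT (SD, n = 3 each).

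The log2 change with 5 weeks of cuprizone was 2.16 ± 0.36 in KO, 2.79 ± 0.35 in HET and 2.92 ± 0.35 in WT, that is 4.47-, 6.92- and 7.57-fold (edgeR, adjusted p = 5.73e-04, 5.27e-07 and 4.40e-07). By p, Clec7a had rank 1 among the 14087 genes tested in WT and rank 3 in both HET and KO. It was the 1 member of 9 called in each of these comparisons, in which 0.0568% (KO), 0.277% (HET) and 0.142% (WT) of all genes were called. In KO the call was lost with limma voom (2.36, adjusted p = 0.212). In bulk RNA from sorted cells, a higher share of cells with the transcript and more transcript per cell cannot be told apart. Other measures moved with diet at 5 weeks as well, and their part in the Clec7a values was not tested. The summed level of 9 microglia markers was 25298 to 37018 CPM in KO, 20303 to 26859.9 in HET and 20319 to 24730.3 in WT on cuprizone, against 29753 to 38631, 30277 to 35596 and 25223 to 35800.0 CPM on control chow, lower without overlap in HET and WT. The mitochondrial share of counts was 2.79 to 3.90% in KO, 2.73 to 4.12% in HET and 2.70 to 4.65% in WT on cuprizone, against 1.95 to 2.35%, 1.97 to 2.44% and 2.06 to 2.71% on control chow, higher without overlap in KO and HET.

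After 12 weeks Clec7a was again higher on cuprizone in every genotype. In KO microglia it had 259.9, 151 and 277 CPM on cuprizone, against 45.8, 29.7 and 50.2 CPM on control chow. In HET microglia the 4 values were 522, 523, 637 and 694 CPM on cuprizone, against 108, 61.0, 51.8 and 46.2 CPM on control chow. In WT microglia the values were 1139, 927 and 681 CPM on cuprizone, against 71.0 and 93.9 CPM in the 2 control libraries. The diets did not overlap in any genotype, and on cuprizone the 3 genotypes fell into separate ranges, except that the lowest WT library lay between the HET libraries. Mean levels on cuprizone were 229 ± 68.2 CPM in KO, 594 ± 85.7 in HET and 916 ± 229 in WT (SD, n = 3, 4 and 3). The summed microglia markers moved with diet at 12 weeks too, at 22300.0 to 25739 CPM in KO, 18390.1 to 22577 in HET and 15625 to 18071 in WT, against 28292 to 31688, 27498 to 30398 and 25332 to 33468 CPM on control chow. Cuprizone libraries had the lower sums in each genotype. The sum of 4 endothelial markers was 80.2 to 142 CPM in KO, 188 to 348 in HET and 299.8 to 476 in WT on cuprizone, against 44.1 to 96.1, 69.5 to 99.99 and 83.1 to 163 CPM on control chow, higher without overlap in HET and WT, with 1 of the 4 called in each of these 2 genotypes. The mitochondrial share was higher without overlap in HET, at 4.04 to 4.57% on cuprizone, against 1.49 to 3.27% on control chow, and overlapped in KO and WT. The part of these in the Clec7a values was not tested.

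The log2 change with 12 weeks of cuprizone was 2.45 ± 0.35 in KO, 3.27 ± 0.31 in HET and 3.53 ± 0.43 in WT, or 5.48-, 9.62- and 11.6-fold (edgeR, adjusted p = 3.16e-05, 6.81e-11 and 2.92e-07). Its rank by p was 2 in each genotype. Again 1 of 9 members was called each time, while 0.0284% (KO), 2.55% (HET) and 0.958% (WT) of all genes were. In a comparison added after seeing the data, the mean diet effect over the genotypes was 2.62 ± 0.21 at 5 weeks (1 of 9 members called, 1.6% of all genes) and 3.08 ± 0.22 at 12 weeks (1 of 9, 2.95%). With the neutrophil marker sum as a covariate, also added afterwards, all 6 diet effects on Clec7a were called, at 2.16 to 3.56.

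**Figure D2:**
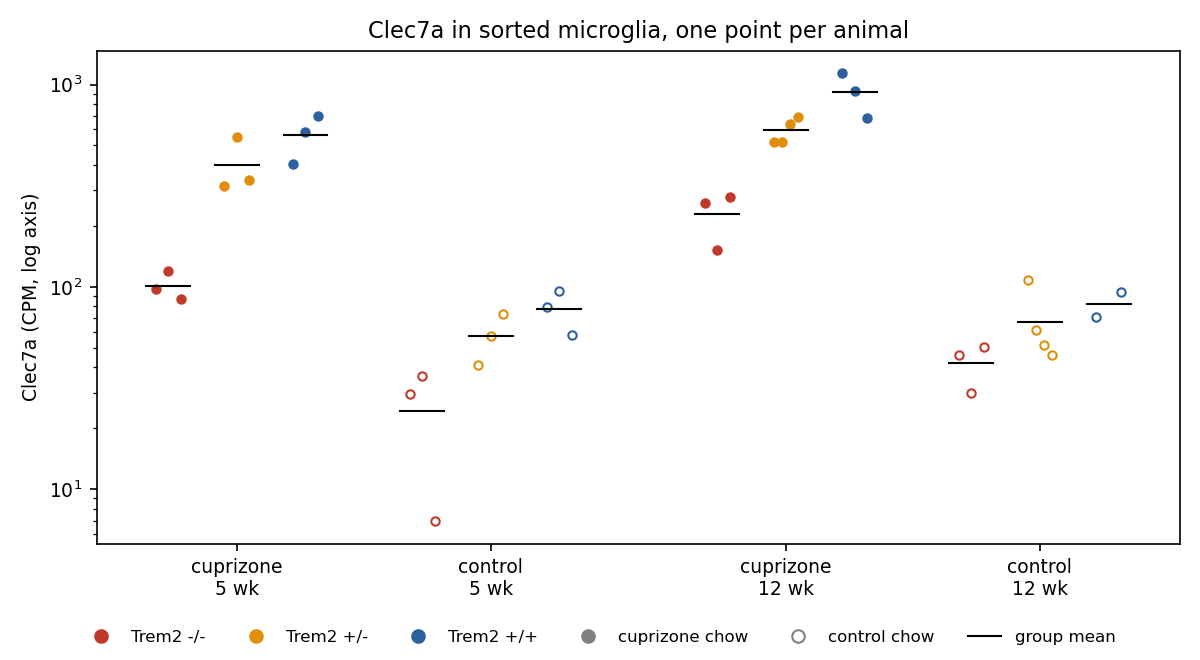
Clec7a in microglia in CPM on a log axis, with 1 point per animal and a line at the mean for each group of genotype, diet and week. On cuprizone, KO libraries lie at 87.0 to 119.7 CPM after 5 weeks and 151 to 277 CPM after 12 weeks, below every HET and WT library on cuprizone of the same week.

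The comparison of genotypes asked whether the level on each diet depended on Trem2. On cuprizone Clec7a was lower in KO than in WT, with a log2 difference of -2.48 ± 0.35 at 5 weeks and -2.07 ± 0.34 at 12 weeks (edgeR, adjusted p = 1.38e-05 and 2.35e-04), with no overlap between the libraries. It was 1 of 9 members called, against 0.0781% of all genes at 5 weeks and 0.44% at 12 weeks. KO was also below HET on cuprizone, with -1.995 ± 0.34 at 5 weeks (adjusted p = 7.32e-04) and -1.496 ± 0.32 at 12 weeks (adjusted p = 0.00742). These too had 1 of 9 members called, beside 0.0639% and 1.05% of all genes. The comparisons share the KO libraries. The call against HET at 12 weeks was lost without KO animal 1748 (-1.26, adjusted p = 0.0816) or KO animal 981 (-1.55, adjusted p = 0.0569).

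Between HET and WT no difference in Clec7a passed the test. HET minus WT on cuprizone was -0.48 ± 0.33 at 5 weeks, with a 95% interval of -1.12 to 0.16, and -0.58 ± 0.30 at 12 weeks, with an interval of -1.17 to 0.02, so a modestly lower level in HET was not resolved with these animals. Of the 9 members 0 were called at either week by edgeR, DESeq2 or limma and 0 had an unadjusted p under 0.05, where 0% and 0.121% of all genes were called. Over all 14087 genes, 600 and 1204 had an unadjusted p under 0.05. On control chow HET minus WT was -0.35 ± 0.34 and -0.31 ± 0.36, again with 0 members called by any of the 3 tools beside 0% and 0% of all genes, and with 1 member (Clec4e) and 0 members at an unadjusted p under 0.05. Such a p was found there for 662 and 1014 of all genes. At 12 weeks DESeq2 gave no adjusted p for 2 of the 9 members on either diet, so it could not call those.

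On control chow every KO library had less Clec7a than every WT library of its week. The log2 difference was -1.72 ± 0.36 at 5 weeks (adjusted p = 0.0770), rank 2 by p among all genes, and -0.996 ± 0.38 at 12 weeks (adjusted p = 0.649), where WT had 2 animals. By edgeR 0 of 9 members were called, beside 0.0071% and 0.0213% of all genes, and 2 members (Clec7a and Clec4e) and 1 member (Clec7a) had an unadjusted p under 0.05. Such a p was found for 610 and 972 of all 14087 genes. DESeq2 called Clec7a at 5 weeks (adjusted p = 0.0139) and no member at 12 weeks, and limma called none. At 12 weeks DESeq2 gave no adjusted p for 2 of the 9 members. The mean over both weeks, a comparison added after seeing the data, was -1.36 ± 0.26 (adjusted p = 0.0189), with 1 of 9 members called beside 0.0142% of all genes. That call was lost with limma (adjusted p = 0.565) and without KO animals 9470, 1744 or 8635 or WT animals 1930 or 9145, each left out alone (adjusted p = 0.0624 to 0.191).

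The diet effect itself was not shown to differ between KO and WT. The log2 difference of the diet effects, KO minus WT, was -0.76 ± 0.48 at 5 weeks, with a 95% interval of -1.70 to 0.19, and -1.08 ± 0.51 at 12 weeks, with an interval of -2.08 to -0.07 (adjusted p = 1 and 0.452). Clec7a values in KO thus lay below those in WT on both diets, and their fold over their own controls was the smaller estimate at both weeks. By edgeR, DESeq2 and limma 0 of 9 members were called, beside 0.0071% and 0.0284% of all genes, and 0 and 2 members (Clec7a and Clec4d) had an unadjusted p under 0.05. Such a p was found for 640 and 1495 of all 14087 genes. The mean over both weeks, added afterwards, was -0.92 ± 0.35 (adjusted p = 0.467), with 0 members called by the 3 tools, 1 at an unadjusted p under 0.05 and 0.0284% of all genes called. In that mean 1057 of all genes had an unadjusted p under 0.05. DESeq2 gave no adjusted p for 2 of the 9 members at 12 weeks and for 1 in the mean over both weeks.

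On cuprizone Clec7a was higher at 12 than at 5 weeks in KO by 1.15 ± 0.33, in HET by 0.65 ± 0.31 and in WT by 0.75 ± 0.33, and none of these passed (edgeR, adjusted p = 0.252, 0.707 and 0.701). In KO the 12-week libraries all lay above the 5-week libraries. Of the 9 members 0 were called by edgeR, DESeq2 or limma, beside 0% (KO), 0.0213% (HET) and 0.0994% (WT) of all genes, with 2, 1 and 2 members at an unadjusted p under 0.05. Such a p was found for 1316, 989 and 983 of all 14087 genes. DESeq2 gave no adjusted p for 2 (KO), 5 (HET) and 4 (WT) of the 9, so it could not call those. Among the members other than Clec7a, Clec4a2 in KO was lower at 12 weeks without overlap (-0.99 ± 0.39, adjusted p = 0.438), as was Clec5a in WT (-0.66 ± 0.42, adjusted p = 0.790). The animals of 5 and of 12 weeks differ. RNA integrity numbers, where given, were lower at 12 than at 5 weeks in KO and WT microglia on cuprizone. Some of these libraries, and all of HET at 12 weeks, have none. The part of RNA quality in these values was not tested.

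The genes whose pattern was most like that of Clec7a were found by Pearson correlation over the 12 microglia group means of log2 CPM, among 9171 genes with an average log2 CPM of at least 3. They were Itgax (r = 0.982), Csf1 (0.972), Cst7 (0.970), Gla (0.965) and Gm1673 (0.962). Itgax encodes the integrin Cd11c, Csf1 a growth factor of microglia, Cst7 a cysteine protease inhibitor and Gla the lysosomal alpha-galactosidase. The 12 means share the contrast of diets, and within groups the deviations of the 37 libraries correlated with those of Clec7a at r = -0.216 (Cst7) to 0.131 (Csf1). None of the other lectins followed Clec7a this closely. Over the same means Clec4e had r = 0.441, and the other 7 had r from -0.742 (Clec4a3) to -0.152 (Clec4a1).

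The other activating receptors were not called in any comparison of diet, genotype or week in microglia. Over the 9 members, the median log2 change with diet was 0.18 in KO, -0.43 in HET and -0.09 in WT at 5 weeks, against 0.02, -0.02 and 0.02 over all genes tested, and 0.12, -0.13 and 0.38 at 12 weeks, against -0.01, -0.05 and 0.08. Medians of the members thus lay on both sides of 0.

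Clec5a, which pairs with the same adaptor as Trem2, was well detected, and its diets overlapped in KO and WT at both weeks. At 5 weeks KO microglia had 157, 124 and 146 CPM on cuprizone, against 149, 76.9 and 205 CPM on control chow, and WT microglia had 107, 185 and 182 CPM on cuprizone, against 167, 182 and 167 CPM on control chow. At 12 weeks KO microglia had 32.2, 184 and 187 CPM on cuprizone, against 102, 171 and 147 CPM on control chow, and WT microglia had 104, 85.8 and 93.2 CPM on cuprizone, against 79.6 and 117 CPM on control chow. Low and high libraries occurred on both diets and in both genotypes, and KO animals on cuprizone at 12 weeks held both the lowest library of all and values near the top of the cuprizone groups. Log2 changes with diet ran from -0.85 ± 0.41 (HET, 5 weeks, adjusted p = 0.601) to 0.10 ± 0.36 (HET, 12 weeks). KO minus WT on cuprizone was -0.11 ± 0.41 at 5 weeks, with a 95% interval of -0.92 to 0.69, and 0.38 ± 0.42 at 12 weeks, with an interval of -0.43 to 1.20.

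Clec4n, the receptor for fungal mannans, varied widely between animals of some groups and little in others. On cuprizone at 5 weeks it had 19.5, 38.2 and 3.84 CPM in KO, 11.4, 20.9 and 24.1 in HET and 11.9, 1.56 and 31.1 in WT. On control chow at 5 weeks it had 68.1, 11.7 and 16.7 CPM in KO, 50.4, 49.8 and 27.5 in HET and 27.9, 34.5 and 28.6 in WT. HET animals on cuprizone lay below HET controls, and the diets overlapped in KO and WT. The log2 changes at 5 weeks were -0.72 ± 0.90, -1.19 ± 0.91 and -1.11 ± 0.92 in KO, HET and WT (adjusted p = 0.942, 0.786 and 0.931). At 12 weeks the diets overlapped in every genotype, with changes of 0.12 ± 0.92, -0.43 ± 0.83 and 0.17 ± 1.04.

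Clec4e (Mincle), which binds mycobacterial glycolipids and a protein released from dying cells, and its partner Clec4d were near the detection limit. Clec4e had 0.253, 8.19 and 0 CPM in KO, 0, 2.48 and 0 in HET and 4.86, 5.48 and 12.5 in WT on cuprizone at 5 weeks. On control chow at 5 weeks it was at 0 in all KO and all HET libraries and had 12.7, 0 and 6.60 CPM in WT. HET libraries on cuprizone lay below those of WT, and KO libraries overlapped both. The KO group on cuprizone held 22 counts in all, 21 of them in animal 2478, and the HET group 5 counts, all in animal 1108, so that each of these groups rests on 1 library. The WT control group held 32 counts, 20 of them in animal 309 and 12 in animal 5512. No difference between these groups passed the test, with an adjusted p of 0.738 for diet in KO, 0.704 for diet in HET, and 1 and 0.988 for KO and HET against WT on control chow. On cuprizone at 12 weeks 2 of 3 KO libraries and 2 of 3 WT libraries were at 0, with 9.06 CPM in the remaining KO and 10.99 CPM in the remaining WT library, and HET had 0.480, 9.71, 11.4 and 0.693 CPM. On control chow at 12 weeks its highest level was 2.83 CPM in KO, 11.7 in HET and 1.92 in WT.

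Clec4d was at 0 in 22 of 37 microglia libraries and exceeded 10 CPM in 1. In KO on cuprizone 1 of 3 libraries held it at 5 weeks (7.02 CPM) and 0 of 3 at 12 weeks. Its highest level, 26.6 CPM, was in WT control animal 309 at 5 weeks, which also had the highest Clec4e level, 12.7 CPM, and the highest neutrophil marker sum, 8074 CPM. KO animal 9542 on cuprizone at 12 weeks had a neutrophil sum of 6462 CPM with Clec4d and Clec4e both at 0. Both receptors are also known from neutrophils, and the part of neutrophils in their values was not tested. Neither was called within microglia with or without the neutrophil sum as a covariate, so that fit had no call to remove. Of the 11 neutrophil markers 0 were called in the 6 diet comparisons by edgeR, with 0 to 6 at an unadjusted p under 0.05 in each, and 1 by DESeq2, in HET at 12 weeks. Over all 14087 genes, 0.0284% to 2.55% were called by edgeR in these comparisons, and 945 to 1900 had an unadjusted p under 0.05.

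**Figure D3:**
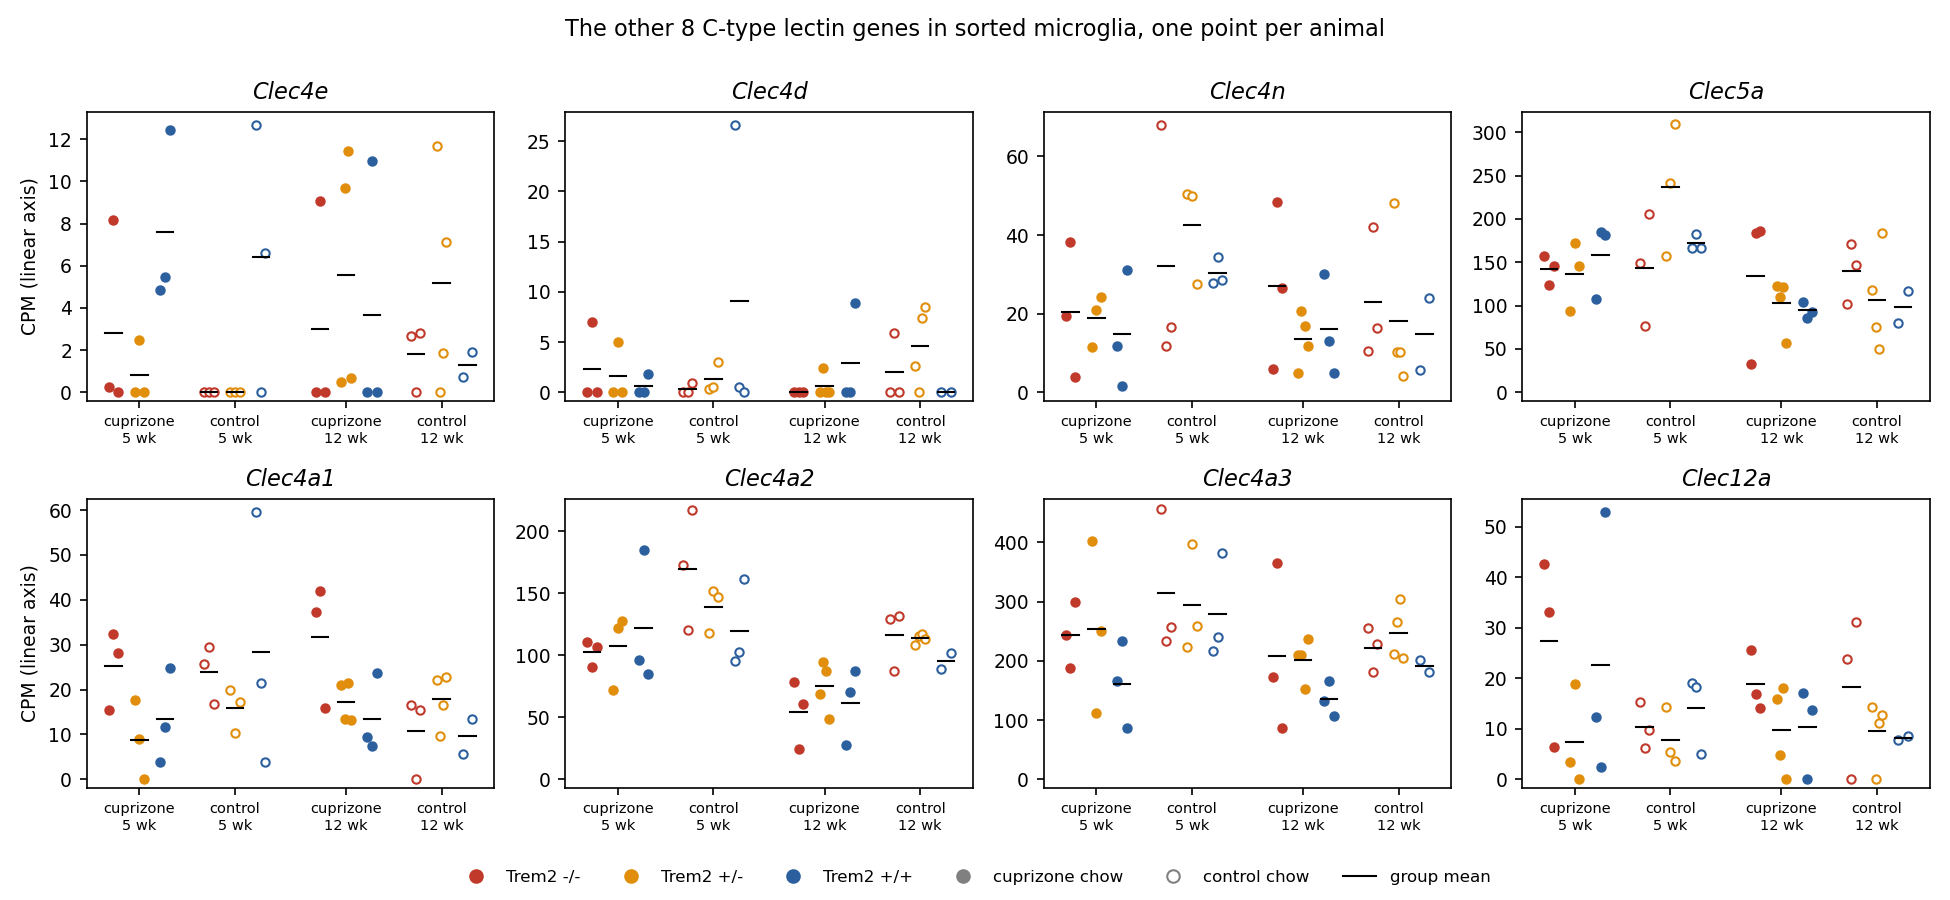
The 8 lectin genes other than Clec7a in microglia, in CPM, 1 panel per gene with its own scale and 1 point per animal, by genotype, diet and week. Diets overlap in most groups, and Clec4d and Clec4e are at 0 in many libraries. Clec4a2 libraries on cuprizone lie below the controls in all 3 genotypes at 12 weeks, where no change within a genotype passed the test.

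Among the inhibitory receptors and their relatives, Clec4a2 (DCIR) had lower values on cuprizone at 12 weeks in each genotype and did not pass the test. In KO it had 78.3, 24.6 and 61.0 CPM on cuprizone, against 129, 87.2 and 131 CPM on control chow. In HET the values were 69.1, 94.7, 87.4 and 48.5 CPM on cuprizone, against 109, 115, 117 and 113 CPM on control chow. In WT they were 27.4, 70.1 and 87.3 CPM on cuprizone, against 88.9 and 102 CPM on control chow. Within each genotype all cuprizone libraries lay below all control libraries, by a narrow margin in WT. The log2 changes were -1.15 ± 0.39 in KO, -0.44 ± 0.33 in HET and -0.50 ± 0.43 in WT (edgeR, adjusted p = 0.554, 0.617 and 0.694).

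The mean change of Clec4a2 over the genotypes at 12 weeks, a comparison added after seeing the data, was -0.70 ± 0.22 (adjusted p = 0.0736). It passed with DESeq2 (adjusted p = 0.0355), with the neutrophil sum as a covariate (0.0485), with the noncoding share as a covariate (0.0443), and without KO control animal 8635 (0.0489) or KO cuprizone animal 981 (0.0221). It did not pass with limma (0.159). With each of the 19 libraries at 12 weeks left out in turn it was -0.85 to -0.58, with an adjusted p of 0.0221 to 0.277. At 5 weeks the KO libraries on cuprizone, 111, 90.8 and 107 CPM, lay below those on control chow, 172, 120.2 and 217 CPM, while HET and WT overlapped, and the mean change was -0.35 ± 0.22 (adjusted p = 0.620). The lower microglia marker sums on cuprizone, given beside Clec7a, moved with these values. So did the sum of 8 border macrophage markers at 12 weeks, lower without overlap in WT and overlapping in KO and HET, at 731 to 1019.8 CPM in KO, 293 to 518 in HET and 292 to 480.3 in WT on cuprizone, against 495 to 976, 448 to 1100.4 and 717 to 945 CPM on control chow. At 5 weeks this sum was lower without overlap in WT, at 470 to 749 CPM against 795 to 1477, and overlapped in KO and HET. The sum of monocyte markers was lower without overlap in WT at 12 weeks, at 67.5 to 140 CPM against 147 to 178. It was also lower without overlap in HET at 5 weeks, at 133 to 248 CPM against 287 to 290, and overlapped otherwise. The part of any of these in the values of Clec4a2 and of Clec4a3 was not tested.

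Clec4a3, a mouse paralog of Clec4a2, had 85.9 to 455.8 CPM across the microglia libraries. Its log2 changes with diet were all below 0, from -0.75 ± 0.41 (WT, 5 weeks) to -0.10 ± 0.41 (KO, 12 weeks), and none passed (smallest adjusted p = 0.750). In WT at 12 weeks the 3 cuprizone libraries, 133, 166 and 107 CPM, lay below the 2 control libraries, 201 and 181 CPM, while the diets overlapped in the other 5 comparisons. On control chow at 12 weeks the 4 HET libraries, 211, 265, 305 and 206 CPM, lay above both WT libraries, as they did for Clec4a2, and HET minus WT was 0.35 ± 0.44 for Clec4a3 and 0.31 ± 0.42 for Clec4a2. KO minus WT on cuprizone was 0.60 ± 0.41 at 5 weeks and 0.54 ± 0.41 at 12 weeks. Clec4a1, another paralog, had 0 to 59.6 CPM, and its largest estimate was 1.66 ± 1.01 for diet in KO at 12 weeks (adjusted p = 0.727). Clec12a, an inhibitory receptor for uric acid crystals, had 0 to 52.9 CPM and was at 0 in 5 of 37 libraries. Its changes with diet ran from -0.44 ± 1.37 (HET, 5 weeks) to 1.26 ± 1.32 (KO, 5 weeks), each smaller than its standard error.

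**Figure D4:**
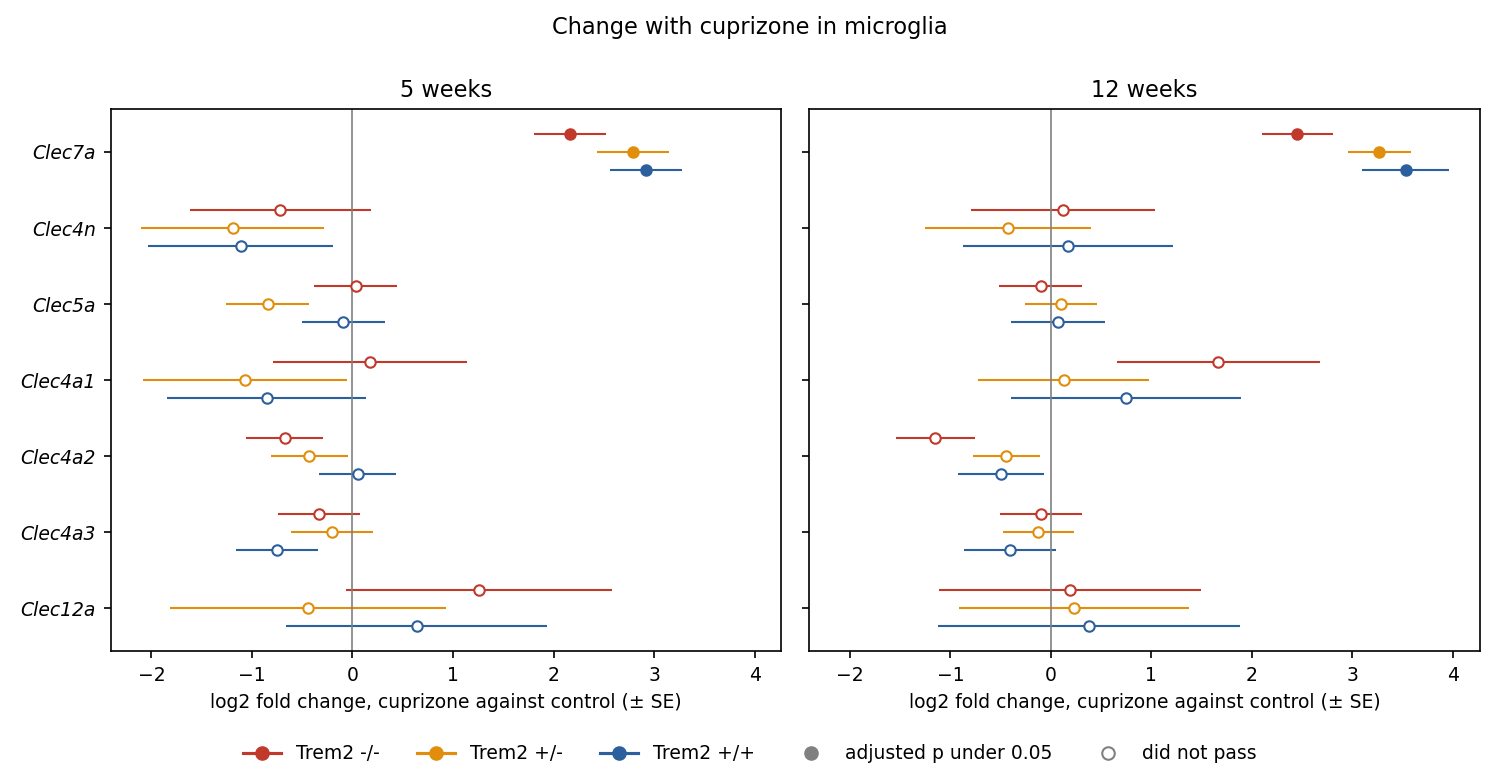
Log2 change on cuprizone against control chow, with its standard error, for 7 of the 9 genes in KO, HET and WT microglia at 5 weeks and at 12 weeks, with filled points where the adjusted p is under 0.05. The 6 filled points are those of Clec7a, at 2.16 to 3.53, and the other genes scatter around 0. Clec4d and Clec4e are left out since whole groups were at 0.

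Most adaptors and kinases that these receptors signal through were not called. Of 14 genes of this step 0 were called with diet at 5 weeks in any genotype by edgeR, DESeq2 or limma, with 2 (KO), 3 (HET) and 4 (WT) at an unadjusted p under 0.05. Over all 14087 genes, 0.0568%, 0.277% and 0.142% were called in these comparisons, and 945, 1148 and 961 had an unadjusted p under 0.05. At 12 weeks 0 were called in KO, by any of the 3 tools or at an unadjusted p under 0.05, where 0.0284% of all genes were called. In that comparison 1048 of the 14087 genes had such a p. In HET, where 2.55% of all genes were called, 3 were higher and 1 lower: Tyrobp (2.07 ± 0.33, adjusted p = 1.49e-04), Hcst (2.08 ± 0.45, 0.00262) and Fcer1g (1.16 ± 0.23, 7.82e-04) rose, and Pik3r1, a subunit of phosphoinositide 3-kinase, fell (-1.07 ± 0.24, 0.00433). In WT, with 0.958% of all genes called, 1 was higher, the Src-family kinase Fyn (3.62 ± 0.91, adjusted p = 0.0344). On cuprizone at 12 weeks, with 1.05% of all genes called between KO and HET and 0.121% between HET and WT, KO was below HET for Fcer1g (-1.15 ± 0.25, adjusted p = 0.00800) and Tyrobp (-1.58 ± 0.36, 0.0227) and above it for Pik3r1 (1.05 ± 0.26), and HET was above WT for Fcer1g (1.25 ± 0.25, 0.00893). Syk, the kinase itself, was not called in any of these comparisons.

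Of 15 genes from Card9 to NF-kB and NFAT, 0 were called in the 6 diet comparisons by edgeR, with 0 to 2 at an unadjusted p under 0.05 in each, and 1 by DESeq2, in WT at 12 weeks. Over all 14087 genes, 0.0284% to 2.55% were called by edgeR in these comparisons, and 945 to 1900 had such an unadjusted p. Of 3 ITIM phosphatases, Inpp5d (SHIP1) was lower in HET on cuprizone at 12 weeks (-0.94 ± 0.23, adjusted p = 0.00998). In that comparison 2.55% of all genes were called. Of 17 cytokine and inflammasome genes known as outputs of Syk and Card9, 15 passed the filter. In HET 5 of the 15 were higher with diet at 12 weeks, where 2.55% of all genes were called, among them Ptgs2 (3.30 ± 0.80), Cxcl2 (1.51 ± 0.33), Tnf (1.502 ± 0.33) and Ccl3 (1.03 ± 0.28), and in WT 1 was, beside 0.958% of all genes, Cxcl2 (2.52 ± 0.46, adjusted p = 0.00155). Cxcl2, a neutrophil chemokine, was lower in KO than in WT on cuprizone at 12 weeks (-2.41 ± 0.39, adjusted p = 2.15e-04), and its diet effect differed between KO and WT (-3.33 ± 0.59, adjusted p = 0.00416). In that test Clec7a missed the threshold.

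Of 31 other C-type lectin and lectin-like genes, 25 passed the filter, and at most 2 were called in any diet comparison within a genotype, where 0.0284% to 2.55% of all genes were called. Lgals3, which encodes galectin-3, was higher on cuprizone in HET at 5 weeks (3.45 ± 0.76, adjusted p = 0.0374) and 12 weeks (3.74 ± 0.65, 6.92e-04). The mannose receptor Mrc1, a marker of border macrophages, was lower on cuprizone in HET at 12 weeks (-1.44 ± 0.34, 0.00829) and higher in KO than in WT on cuprizone at 12 weeks (1.85 ± 0.40, 0.0125).

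In the nonmicroglia fraction 2 of the 9 members, Clec7a and Clec4a3, passed the filter. Clec7a had 0 to 15.2 CPM (0 to 26 counts), highest in HET animal 1040 on cuprizone at 12 weeks. Its mean change with diet over the genotypes was 1.001 ± 1.08 at 5 weeks and 0.12 ± 1.08 at 12 weeks, and that of Clec4a3 was -0.01 ± 0.94 and -0.44 ± 1.04. Of the 2 genes 0 were called at either week by edgeR, DESeq2 or limma and 0 had an unadjusted p under 0.05, where 0.443% and 0.497% of all genes were called. Over all 16915 genes tested there, 1283 and 1423 had an unadjusted p under 0.05. The sign of the 12-week change of Clec7a turned when single libraries were left out.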

How the data were processed

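RNA of Cd11b+ cells and of all other viable cells from 37 mouse brains was sequenced as 3' tags by a low-input procedure, per the labels' protocols. The deposited table holds raw counts per gene, as whole numbers without normalization, for 49912 genes and 74 libraries. Per the submitters' processing notes, STAR, FastQC 0.11.5, R 3.4.3 and MultiQC were used with GRCm38.p6. Which counter and annotation made the counts, and whether strand or molecular identifiers were used, is not given in the sources used here, so overlapping genes and close paralogs can share counts, and floors cover counting error only. No library was left out.

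Each fraction was fitted with edgeR 4.0.16 in R 4.3.3 (TMM, filterByExpr with a minimum count of 10, robust quasi-likelihood model with 12 group means and sex). Fractions of WT animals were compared with week and sex as covariates. Benjamini-Hochberg adjustment ran over all genes of a comparison, with calls under 0.05. Standard errors come from the F statistic. Overlap of libraries between groups was read for named values only, and the share of all genes without overlap was not counted. In all 29 comparisons were made, of which 4 means over genotypes or weeks were added after seeing the data.

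The 9 genes, the pathway and marker lists and the rule for named genes (the members, Trem2, up to 4 genes with the smallest adjusted p per list and comparison, and the 5 genes most like Clec7a) were chosen with earlier results of these data known. Alternatives were the Wald test of DESeq2 1.42.0, its size factors in the edgeR fit, limma 3.58.1 voom with quality weights, no filter, no sex term, each library left out in turn, an animal block between fractions, and, added afterwards, the noncoding share or the neutrophil marker sum as a covariate. The animal number in the labels pairs the fractions of 1 animal. Deviations from group means correlated at -0.0186 to 0.0909 on control chow and -0.0049 to 0.132 on cuprizone. The code was tested on simulated counts. Coordinates are from GENCODE M21, promoter sequences from RefSeq, both of GRCm38.p6.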

Additional observations from a re-analysis of the deposited data

Results flagged for a closer look

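In 36 groups of 4 animals tested across the 9 genes and both fractions, 5 held a library far from the other 3. Chance flags about 1 in 20 groups of continuous values, and that rate does not hold for 4 of the 5, in which the other 3 libraries were at 0 and any count stands apart. All 5 are HET groups at 12 weeks, the only groups with 4 animals. Clec4n in microglia on control chow was 48.1 CPM (74 counts) in animal 943, against 4.27 to 10.4 CPM in the other 3. The same animal had 7.05 CPM of Clec4d (13 counts) in its nonmicroglia library, where the others were at 0. Clec4d in microglia on cuprizone was 2.43 CPM (4 counts) in animal 2476, with the others at 0. Clec4n in nonmicroglia on cuprizone was 2.35 CPM (4 counts) in animal 1040, with the others at 0. Clec12a in nonmicroglia on control chow was 13.1 CPM (22 counts) in animal 7674, with the others at 0.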

How the results depend on the processing

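For Clec7a and the other members called, the sign never changed in 264 values with a library left out or in 188 under another setting, and 256 and 183 of these stayed called. These values include those between fractions, where log2 differences of 4.42 or more left little room for a change of sign. Within microglia, with a library left out, the 6 diet effects on Clec7a ran from 1.72 to 3.73. On cuprizone KO against WT then ran from -2.70 to -1.84 and KO against HET from -2.14 to -1.26. Of values not called, 238 of 1873 and 99 of 1515 changed sign. The number of members called was 0 instead of 1 with limma for diet in KO at 5 weeks, and 1 instead of 0 for KO against WT on control chow at 5 weeks, with DESeq2 and with no filter. It was 0 to 1 with libraries left out for KO against HET on cuprizone at 12 weeks. Between fractions on cuprizone it was 5 instead of 8 with the noncoding share as covariate, where 2859 genes were called instead of 5708. For the mean diet effect at 12 weeks it was 2 with DESeq2 and with either covariate, and 1 to 2 with libraries left out. For KO against WT on control chow over both weeks it was 0 with limma and 0 to 1 with libraries left out. The change of Clec7a with diet in nonmicroglia at 12 weeks, 0.12, turned to -0.0483 with limma and ran from -0.25 to 0.28 with libraries left out, at -0.03 without HET animal 1040, -0.25 without KO animal 981 and -0.16 without WT animal 8043. The cause of these moves was not tested. With the animal as replicate block, 7 of 7 members on control chow and 8 of 8 on cuprizone were higher in microglia, with Clec7a at 5.25 and 8.46, and no call other than Clec12a changed. Depth limits Clec4d and Clec4e most, both at 0 in many libraries, and Clec7a in nonmicroglia. Groups of 2 to 4 animals limit the tests of interactions.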
